A study of Mus musculus with 6 samples.

Results

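Macrophages carry families of surface receptors that bind modified lipoproteins, microbial sugars and dying cells. RNA levels of 10 such receptor genes were compared in cultured BM MSCs from mice that had received FMT: the scavenger receptors *Marco*, *Msr1* and *Cd163*, the mannose receptor *Mrc1*, the C-type lectins *Clec4n*, *Clec4d*, *Clec4e*, *Clec7a* and *Clec10a*, and the phosphatidylserine receptor *Timd4*. They were chosen by gene name from the 56980 genes of the deposited table, and each name matched 1 row. All recipients were OVX mice, operated on at 8 weeks of age. They had their intestinal microbiota depleted with antibiotics and were then gavaged with donor feces for 8 weeks. In the TranspCtrl group (3 samples) the donors were sedentary OVX mice, and in the TranspExer group (3 samples) they were exercised OVX mice. Marrow was flushed from the femurs and tibias and cultured for 7 days with washes, and no sorting step was described. The comparison asked which of these receptors differed in the recipients' marrow cultures after FMT from exercised donors.

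Scavenger receptors are a structurally mixed group that share the uptake of polyanionic ligands such as oxidized lipoproteins and bacterial wall components. The products of *Clec4n*, *Clec4d* and *Clec4e* bind glycolipids or mannose-rich glycans and signal through the adaptor FcRγ and the kinase Syk, whereas Dectin-1, the product of *Clec7a*, reaches Syk through a motif in its own tail. Several of these receptors serve as labels of macrophage states: *Mrc1* and *Clec10a* rise in cells treated with interleukin 4, *Marco* and *Clec4e* rise in cells exposed to microbial products, and *Timd4* and *Cd163* are found in long-lived resident macrophages. In bone marrow, macrophages clear the nuclei of erythroblasts and share a precursor with osteoclasts.

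The members did not move as a block. *Clec4n*, *Clec4e* and *Marco* were lower in the TranspExer group by 2.89-, 3.14- and 2.56-fold, and *Clec7a* was 2.07-fold higher. *Clec10a* and *Mrc1* were lower and *Timd4* was higher by less than 2-fold, and *Msr1*, *Clec4d* and *Cd163* did not pass the test. Of 15190 genes that passed the filter on low counts, which all 10 members did, 5.28% were lower and 3.5% were higher at an adjusted p-value under 0.05 and a fold change of at least 2, and among the members these counts were 3 and 1. The 1 higher member, *Clec7a*, was under 2-fold with upper-quartile normalization or with library size only, and with the fold change of 2 tested within the model 1 member was lower and 0 were higher. With the adjusted p-value alone, 15.5% of genes were lower and 16.6% higher, against 5 and 2 of the 10 members. The 2 became 4 without TranspCtrl replicate 1 and 1 without TranspCtrl replicate 3 or any 1 TranspExer sample. Shares over all genes were not computed for those refits, so these counts have no matching background. The median log2 fold change of the members was -0.17, against -0.02 over all genes tested.

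**Figure D1:**
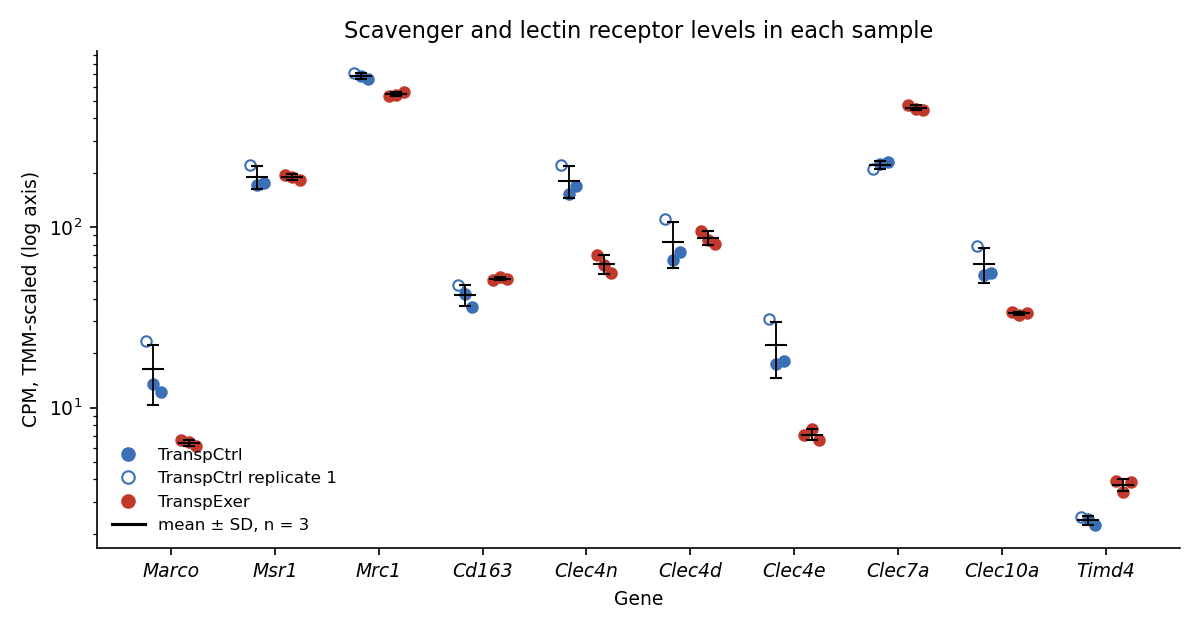
Level of each receptor gene in each sample, in CPM scaled by TMM factors on a log axis. Points are samples (open, TranspCtrl replicate 1), and black marks are the mean ± SD of 3 samples. The TranspExer points of *Clec4n*, *Clec4e*, *Marco*, *Clec10a* and *Mrc1* lie below every TranspCtrl point and those of *Clec7a*, *Timd4* and *Cd163* lie above, while *Msr1* and *Clec4d* overlap.

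The libraries held between 17647638 and 21319166 counts, and 3 counts, the floor used here, equalled 0.14 to 0.174 CPM, a limit that covers counting error only. *Timd4*, the lowest member, had 47 to 78 counts per sample and *Mrc1*, the highest, 9322 to 14532. TranspCtrl replicate 1 stood apart from the other TranspCtrl samples, with a score of 29.7 on the second principal component against -22.7 and -19.0, and 9 of the 10 members were at their TranspCtrl maximum in it, the exception being *Clec7a*. Values without it are therefore given where they alter the call of a member or move a list's count by 1.5 times or more. Shares over all genes were not computed without it, so such counts have no background of their own. Libraries were labelled as MSCs, yet macrophage genes were abundant in all of them: *Csf1r*, the receptor for the macrophage growth factor, was at 882 ± 33.0 CPM (SD, n = 3) in the TranspCtrl group and 928 ± 41.9 CPM in the TranspExer group. Stromal genes were present too, among them the mesenchymal receptor *Pdgfra*, at 112 ± 3.96 CPM and 55.8 ± 0.652 CPM. In such bulk samples, fewer cells of a type and less RNA per cell cannot be told apart.

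The promoters are shown for 4 members because they cover a pair of neighbours of unlike result, *Clec4e* and *Clec4d*, and both members that rose, *Clec7a* and *Timd4*. Each line holds the 250 bases before the RefSeq start on GRCm38.p6, 5′ to 3′ on the gene's strand: chr6:123289872-123290121 on the minus strand for *Clec4e*, chr6:123261857-123262106 on the plus strand for *Clec4d*, chr6:129472780-129473029 on the minus strand for *Clec7a* (the first of its 2 entries) and chr11:46810549-46810798 on the plus strand for *Timd4*. Capitals mark matches, on either strand, to GAGGAA (bound by PU.1, the ETS factor of myeloid cells), an ETS-IRF composite (GGAA, then any 2 bases, then GAAA) or TTGCNNAA (C/EBP).
Clec4e: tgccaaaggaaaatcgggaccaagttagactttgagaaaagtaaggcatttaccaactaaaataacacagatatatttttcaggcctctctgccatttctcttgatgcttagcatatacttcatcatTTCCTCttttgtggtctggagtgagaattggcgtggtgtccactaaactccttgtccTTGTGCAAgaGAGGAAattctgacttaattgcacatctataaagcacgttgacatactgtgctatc
Clec4d: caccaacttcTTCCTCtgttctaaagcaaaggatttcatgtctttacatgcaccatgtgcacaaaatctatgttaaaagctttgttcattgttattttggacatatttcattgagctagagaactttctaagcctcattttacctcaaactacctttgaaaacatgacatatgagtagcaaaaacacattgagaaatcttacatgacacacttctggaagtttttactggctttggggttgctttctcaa
Clec7a: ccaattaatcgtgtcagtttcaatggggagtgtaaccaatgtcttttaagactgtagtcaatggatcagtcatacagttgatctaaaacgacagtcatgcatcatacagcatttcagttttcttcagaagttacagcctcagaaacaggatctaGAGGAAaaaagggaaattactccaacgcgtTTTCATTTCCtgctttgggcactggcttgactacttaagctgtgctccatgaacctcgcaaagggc
Timd4: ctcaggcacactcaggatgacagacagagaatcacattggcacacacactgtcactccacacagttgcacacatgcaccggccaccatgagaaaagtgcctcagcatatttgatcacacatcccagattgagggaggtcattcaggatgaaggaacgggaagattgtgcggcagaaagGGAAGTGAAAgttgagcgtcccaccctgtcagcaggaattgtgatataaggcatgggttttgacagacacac

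RefSeq promoters were matched for 7 of the 10 members, without *Msr1*, *Clec4n* and *Clec10a*. GAGGAA was found in 5 of these 7, against 23.3% of 32841 promoters searched in the same way, and its 2 matches in *Clec4e* lay 123 to 118 and 56 to 51 bases before the start. The ETS-IRF composite was found in *Clec7a*, 66 to 57 bases before the start, and in *Timd4*, 72 to 63 bases before it, and in 2.3% of all promoters. TTGCNNAA was found in *Clec4e* alone of the 7, 66 to 59 bases before the start, and in 9.57% of all promoters. Neither an interferon response element (GAAA, then any 2 bases, then GAAA, 2.98% of promoters) nor TGANTCA (AP-1, 6.75%) was found in the 7. GAGGAA and the composite did not overlap in *Clec7a*, where GAGGAA lay 96 to 91 bases before the start. A match of letters describes these windows and does not show binding.

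The *Clec4* members lie side by side on chromosome 6 (GENCODE M21 on GRCm38): *Clec4n* at chr6:123229843-123247021, *Clec4d* at chr6:123262111-123275265 and *Clec4e* at chr6:123281789-123289870, the last on the opposite strand. *Clec4n* encodes Dectin-2, a receptor for fungal mannans. Its level was 222, 152 and 169 CPM in TranspCtrl replicates 1 to 3 and 70.3, 61.5 and 55.8 CPM in TranspExer replicates 1 to 3. The highest TranspExer sample was thus below the lowest TranspCtrl sample by a wide margin. The log2 fold change was -1.53 (SE 0.15, adjusted p = 0.000372 by edgeR's quasi-likelihood test).

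*Clec4e* encodes Mincle, which senses mycobacterial glycolipids and a factor from dying cells. Its TranspCtrl samples had 31.1, 17.5 and 18.2 CPM and its TranspExer samples 7.06, 7.61 and 6.61 CPM. All 3 TranspExer samples were below every TranspCtrl sample, and the first TranspCtrl sample was 1.74 times the mean of the other 2. This gave a log2 fold change of -1.65 (SE 0.23, adjusted p = 0.00166), and -1.33 without that sample.

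*Clec4d* encodes a lectin that pairs with Mincle and is placed between the other two on the chromosome. It had 110.5, 65.8 and 73.0 CPM in the TranspCtrl samples and 95.6, 84.8 and 80.8 CPM in the TranspExer samples. The groups overlapped, as the first TranspCtrl sample was the highest of all 6 while the other TranspCtrl samples were the lowest. Its log2 fold change of 0.07 did not pass the test (95% interval -0.36 to 0.49, adjusted p = 0.798). Without TranspCtrl replicate 1 it was 0.33 and passed the test (adjusted p = 0.00402), so the call for *Clec4d* rested on 1 library.

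Levels of the *Clec4* members relative to each other were compared per kilobase of exon, for pairs chosen after their values were seen. The length used for each gene sets the size of such a ratio but not its fold difference between the groups. Per length, *Clec4n* was 2.26, 2.60 and 2.61 times the level of *Clec4d* in the TranspCtrl samples and 0.828, 0.817 and 0.778 times in the TranspExer samples. The more abundant of the pair was thus *Clec4n* in every TranspCtrl sample and *Clec4d* in every TranspExer sample. *Clec4e* was 0.0855 ± 0.00512 (SD, n = 3) times the level of *Clec4d* in the TranspCtrl group and 0.0263 ± 0.00257 times in the TranspExer group. An exact two-sided permutation test gave p = 0.1 for each pair, the smallest that 3 samples against 3 allow. TranspCtrl replicate 1, which stood out in the level of all 3 genes, did not stand apart in the ratio of *Clec4e* to *Clec4d*, which was 0.0907 in it and 0.0855 and 0.0804 in the other two.

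*Clec7a* lies in a separate lectin region of the same chromosome, at chr6:129461591-129472779 on the minus strand, and encodes Dectin-1, the receptor for fungal β-glucan. It is annotated as a polymorphic pseudogene in GENCODE M21. The TranspCtrl samples had 209.5, 224 and 230.5 CPM and the TranspExer samples 473, 452 and 446 CPM. Every TranspExer sample was above every TranspCtrl sample, and unlike the other members it was lowest in TranspCtrl replicate 1. The log2 fold change was 1.05 (95% interval 0.86 to 1.23, adjusted p = 0.000105), an interval that includes a change of less than 2-fold. Per length, *Clec7a* was 0.679 ± 0.151 times the level of *Clec4n* in the TranspCtrl group and 3.96 ± 0.343 times in the TranspExer group, a 5.93-fold difference between the means of the log2 ratios (exact permutation p = 0.1), again for a pair chosen after its values were seen.

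**Figure D2:**
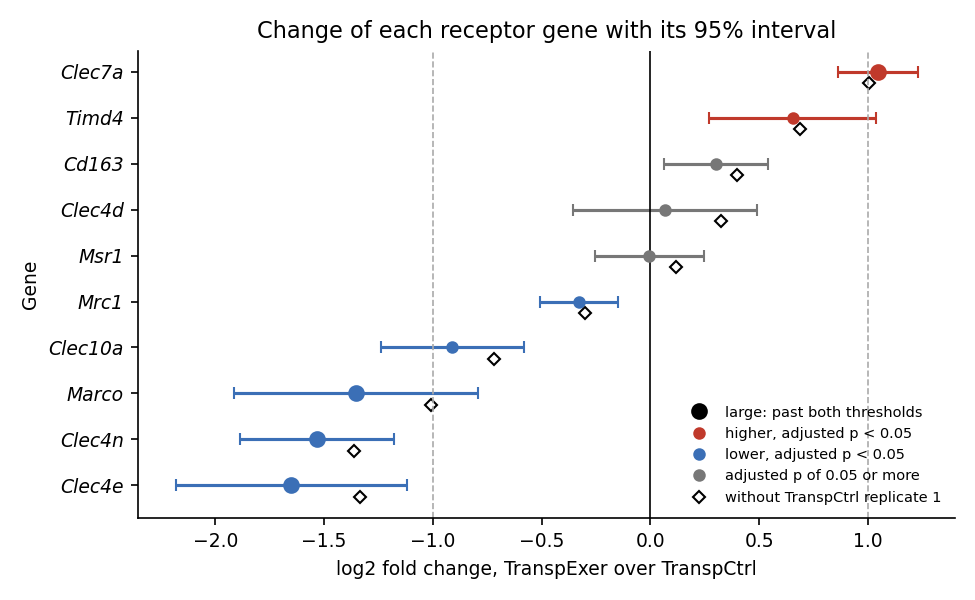
Log2 fold change of each receptor gene, TranspExer over TranspCtrl, with the 95% interval from edgeR. Large points passed both thresholds, small coloured points the adjusted p-value alone and grey points neither, dashed lines mark a 2-fold change, and diamonds give the value without TranspCtrl replicate 1. *Clec4d* moves from 0.07 to 0.33 when that sample is left out.

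*Clec10a*, at chr11:70156197-70170834, encodes the macrophage galactose-type lectin, which binds terminal galactose and N-acetylgalactosamine. It was measured at 78.2, 54.2 and 55.5 CPM in the TranspCtrl samples and 33.7, 32.7 and 33.6 CPM in the TranspExer samples. The groups did not overlap and the TranspExer samples were nearly equal. At a log2 fold change of -0.91 (SE 0.14, adjusted p = 0.00272) the gene was lower, short of 2-fold. *Clec10a* was the only member with counts that were not whole numbers, in all 6 samples, as arises where reads are divided between genes, and which genes were involved was not tested. With the counts of its close relative *Mgl2* added, the log2 fold change was -0.93 (SE 0.14, adjusted p = 0.00269), and *Mgl2* itself was at 11.5 ± 2.95 CPM and 5.71 ± 0.230 CPM (log2 fold change -1.02, adjusted p = 0.00559).

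*Mrc1*, at chr2:14229392-14332057, encodes the mannose receptor, which clears glycoproteins and mannose-bearing microbes. Its levels were 709.6, 684 and 657 CPM in the TranspCtrl samples and 530.2, 542 and 561 CPM in the TranspExer samples. The groups were separate although the difference was small, with a log2 fold change of -0.33 (SE 0.08, adjusted p = 0.0159). The call was lost without TranspExer replicate 1 (adjusted p = 0.067) or replicate 2 (adjusted p = 0.0746).

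Among the scavenger receptors, *Marco* and *Msr1* both encode trimeric class A receptors with a collagenous domain. *Marco*, at chr1:120474538-120505024, was at 23.2, 13.5 and 12.3 CPM in the TranspCtrl samples and 6.59, 6.45 and 6.11 CPM in the TranspExer samples. The TranspExer samples lay close together and below all TranspCtrl samples, of which the first was 1.81 times the mean of the other 2. The log2 fold change was -1.35 (SE 0.24, adjusted p = 0.00507) and -1.01 without that sample.

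*Msr1*, at chr8:39581685-39642673, had 221, 172 and 176 CPM in the TranspCtrl samples and 195, 190 and 182 CPM in the TranspExer samples. The TranspExer values fell within the TranspCtrl range. Its log2 fold change of 0.00 had a 95% interval of -0.26 to 0.25 (adjusted p = 0.977), which leaves room for a change of up to 1.19-fold in either direction. Per length, *Marco* was 0.278 ± 0.0612 times the level of *Msr1* in the TranspCtrl group and 0.111 ± 0.000592 times in the TranspExer group (exact permutation p = 0.1), a pair chosen after its values were seen. The size of this ratio depended on the length used for *Msr1*, whose level in the TranspCtrl group was 29.9 CPM per kb of all exons, 52.2 with the longest transcript and 133 with the length in the deposited table.

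*Cd163*, at chr6:124304656-124330527, encodes the receptor for haptoglobin-hemoglobin complexes. It was at 47.5, 42.5 and 36.1 CPM in the TranspCtrl samples and at 50.9, 52.8 and 51.7 CPM in the TranspExer samples. All TranspExer samples were above all TranspCtrl samples, but the log2 fold change of 0.30 (95% interval 0.06 to 0.54) had an adjusted p-value of 0.0583. Without TranspCtrl replicate 1 it was 0.40 with an adjusted p-value of 0.000825. *Mrc1* and *Cd163*, often used together as labels of alternatively activated macrophages, thus had estimates of opposite sign, and per length *Mrc1* was 14.1 ± 1.40 times the level of *Cd163* in the TranspCtrl group and 9.0 ± 0.257 times in the TranspExer group (exact permutation p = 0.1, chosen after its values were seen).

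*Timd4*, at chr11:46810800-46844332, encodes TIM-4, which tethers apoptotic cells by their phosphatidylserine. The TranspCtrl samples had 2.49, 2.41 and 2.23 CPM and the TranspExer samples 3.92, 3.43 and 3.87 CPM. The groups did not overlap, and *Timd4* was the only member that varied more among TranspExer samples (CV 7.28%) than among TranspCtrl samples (CV 5.58%). *Timd4* rose by a log2 fold change of 0.65 (SE 0.17, adjusted p = 0.0205). At 47 to 78 counts per sample the call was not firm, and leaving out TranspCtrl replicate 3 or any 1 TranspExer sample took the adjusted p-value to between 0.0502 and 0.0772.

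In all, TranspExer samples were below every TranspCtrl sample for 5 members and above every one for 3, where 25.1% and 27.2% of all genes tested were so placed. The spread within the groups was unequal: for 9 of 10 members the CV was larger in the TranspCtrl group, up to 36.9% for *Marco* against 3.88% in the TranspExer group.

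The order of the receptors by level also differed between the groups. In the TranspCtrl group the level per kilobase of exon was highest for *Clec4n*, at 127 ± 25.7 CPM per kb, followed by *Mrc1* at 107 ± 4.15, *Clec7a* at 83.9 ± 4.07, *Clec4d* at 52.0 ± 15.0, *Msr1* at 29.9 ± 4.27, *Clec10a* at 21.6 ± 4.66, *Marco* at 8.48 ± 3.13, *Cd163* at 7.70 ± 1.04, *Clec4e* at 4.48 ± 1.54 and *Timd4* at 1.09 ± 0.061 CPM per kb. The samples of *Clec4n* and *Mrc1* overlapped, as did those of *Marco* and *Cd163*. In the TranspExer group *Clec7a* came first at 173 ± 5.34 CPM per kb, followed by *Mrc1* at 85.4 ± 2.41, *Clec4d* at 54.5 ± 4.81, *Clec4n* at 44.0 ± 5.15, *Msr1* at 29.8 ± 1.07, *Clec10a* at 11.5 ± 0.201, *Cd163* at 9.49 ± 0.167, *Marco* at 3.32 ± 0.129, *Timd4* at 1.72 ± 0.125 and *Clec4e* at 1.43 ± 0.101 CPM per kb. No neighbours in that order overlapped between samples, though *Clec4d* and *Clec4n* came within 1 SD of doing so, as did *Timd4* and *Clec4e*. Several places depended on the length used. With the length given in the deposited table *Msr1* was at 133 CPM per kb in both groups, second in the order, and *Clec4e*, at 2.82 CPM per kb in the TranspExer group, stayed above *Timd4*. With the longest transcript *Cd163* was above *Marco* in both groups, and *Msr1*, at 52.0 CPM per kb, was above *Clec4n*, at 44.5, in the TranspExer group. By group mean, *Clec7a* was first in the TranspExer group and *Clec4n* first in the TranspCtrl group with all 3 lengths. With the longest transcript, TranspCtrl samples of *Clec4n* (108 to 158 CPM per kb) and *Mrc1* (122 to 132) overlapped. There *Mrc1* was above *Clec4n* in TranspCtrl replicates 2 and 3, so the first place of *Clec4n* rested on TranspCtrl replicate 1.

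To set the receptors against other macrophage genes of each culture, their log2 levels were taken relative to the mean log2 level of 10 pan-macrophage genes of the same sample. That reference was itself 0.19 higher on the log2 scale in the TranspExer group. Relative to it, the difference of the group means was -1.71 for *Clec4n*, -1.73 for *Clec4e*, -1.43 for *Marco*, -1.07 for *Clec10a*, -0.52 for *Mrc1*, 0.85 for *Clec7a* and 0.36 for *Timd4*, each with groups that did not overlap and an exact permutation p = 0.1. *Msr1*, at -0.19, was also separate (exact permutation p = 0.1), whereas *Cd163* at 0.11 (exact permutation p = 0.3) and *Clec4d* at -0.09 (exact permutation p = 0.8) overlapped. The size of every difference depended on the reference. With summed CPM, to which the lysozyme gene *Lyz2* contributes most, the differences were -1.19 for *Clec4n*, -1.21 for *Clec4e*, -0.91 for *Marco*, -0.56 for *Clec10a*, 1.37 for *Clec7a* and 0.88 for *Timd4*. On that scale *Cd163* at 0.63, *Msr1* at 0.33 and *Clec4d* at 0.42 were separate and higher, and *Mrc1* at 0.00 overlapped.

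**Figure D3:**
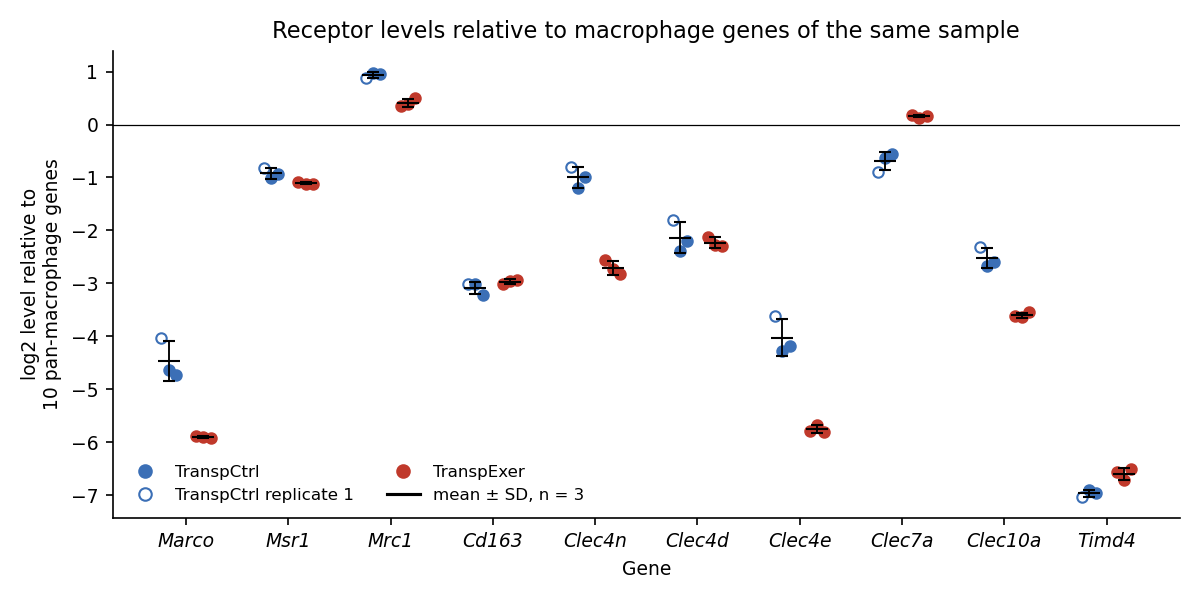
Log2 level of each receptor gene minus the mean log2 level of 10 pan-macrophage genes in the same sample, with a pseudocount of 0.5 CPM. Points are samples (open, TranspCtrl replicate 1), and black marks are the mean ± SD of 3 samples. *Clec4n*, *Clec4e*, *Marco* and *Clec10a* stay lower in the TranspExer group by more than 1 log2 unit, and *Clec7a* stays higher by 0.85.

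Of the 10 pan-macrophage genes, 4 were higher and 1 was lower by adjusted p-value. *Lyz2* fell (log2 fold change -1.14, adjusted p = 0.00873). Neither *Csf1r* (log2 fold change 0.07, adjusted p = 0.511) nor *Adgre1*, the gene of F4/80 (log2 fold change 0.16, adjusted p = 0.189), passed the test. Without TranspCtrl replicate 1 none of the 10 passed both thresholds.

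The receptors' genomic neighbours were read in map order. The *Clec4* cluster spans chr6:122921848-123289870 and holds 13 annotated genes, of which 8 were tested. By adjusted p-value 4 were higher (*Clec4a1*, *Clec4a3*, *Clec4b1* and *Clec4b2*) and 2 lower (*Clec4n* and *Clec4e*). All 4 that were higher lie on the same side of *Clec4n*, the nearest of them, *Clec4b2*, with a log2 fold change of 0.94 (SE 0.22, adjusted p = 0.0162). The region as drawn ends at *Clec4e*, and *Clec4d* and *Clec4e* are the only tested genes on the other side of *Clec4n*. *Clec4a1*, the most distant, had the firmest difference, 88.0 ± 2.65 CPM against 154.5 ± 3.11 CPM (log2 fold change 0.81, adjusted p = 0.000192). *Clec4a2*, an inhibitory receptor within the cluster, did not pass (log2 fold change 0.14, adjusted p = 0.358).

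The region of *Clec7a*, chr6:129180615-129507165, holds 14 annotated genes, of which 9 were tested. With *Clec7a*, *Clec12a*, *Clec1b* and *Clec9a* were higher by adjusted p-value and *Cd69* was lower. *Clec12a*, an inhibitory receptor for uric acid crystals, went from 113 ± 18.6 CPM to 175 ± 11.5 CPM (log2 fold change 0.63, adjusted p = 0.00685). *Olr1*, a scavenger receptor for oxidized LDL and the nearest tested neighbour of *Clec7a* on 1 side, did not pass (log2 fold change 0.39, adjusted p = 0.10).

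**Figure D4:**
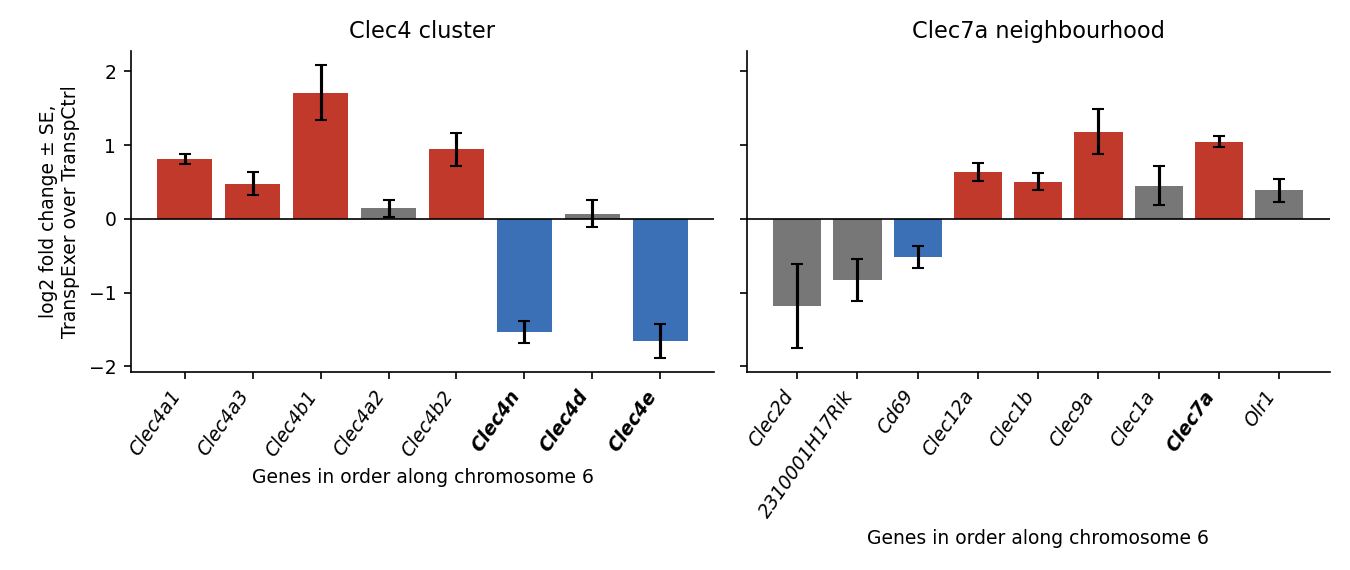
Log2 fold change ± SE, TranspExer over TranspCtrl, of the tested genes of both lectin regions in map order, with receptors reported in full in bold. Red and blue bars passed an adjusted p-value of 0.05, grey bars did not, and *Clec4n* and *Clec4e* are the only genes of the *Clec4* cluster that were lower.

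Other genes of the same pathways were read from fixed lists, beside the background shares of 16.6% higher and 15.5% lower. These shares come from the fit to all 6 samples and do not apply to counts without TranspCtrl replicate 1. Of 18 other scavenger receptors, 17 were tested, 9 were higher and 4 were lower by adjusted p-value, with a median log2 fold change of 0.48. *Cd36*, the fatty acid and oxidized LDL receptor, went from 364 ± 9.50 CPM to 1498 ± 53.2 CPM (log2 fold change 2.04, adjusted p = 1.45e-05). *Stab2*, the clearance receptor for hyaluronan, rose (log2 fold change 1.43, adjusted p = 6.19e-05), as did *Megf10* (log2 fold change 2.09, adjusted p = 0.000709), which was below 6 CPM in every sample. *Stab2* is also a gene of sinusoidal endothelium, and endothelial markers rose alongside it, such as *Emcn* (log2 fold change 1.52, adjusted p = 5.25e-05) and *Kdr* (log2 fold change 1.55, adjusted p = 7.57e-05), whose part in its difference was not tested. *Ssc5d* was the single gene of this list that was lower past both thresholds (log2 fold change -1.16, adjusted p = 0.0013).

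Of 29 other C-type lectin receptors, 18 were tested, 8 were higher and 3 lower, with a median log2 fold change of 0.32. *Mgl2*, *Clec4b1* (log2 fold change 1.71, adjusted p = 0.0112) and *Clec9a* (log2 fold change 1.18, adjusted p = 0.0205) passed both thresholds, the latter pair among those higher, which numbered 3 without TranspCtrl replicate 1. *Clec4b1* and *Clec9a* were low, at 1.40 ± 0.352 and 2.56 ± 0.596 CPM in the TranspExer group. Without TranspCtrl replicate 1, *Mgl2* was no longer past both thresholds, since none of the list was then lower by 2-fold.

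The signalling genes shared by these lectins did not follow the receptors that fell. Of 22 genes, 10 were higher, 1 was lower and none passed both thresholds, and without TranspCtrl replicate 1, 14 were higher. *Fcer1g*, the FcRγ adaptor of Dectin-2 and Mincle, went from 316 ± 42.4 CPM to 513 ± 5.83 CPM (log2 fold change 0.70, adjusted p = 0.00265). *Syk*, the kinase downstream of the adaptor and of Dectin-1, rose slightly (log2 fold change 0.37, adjusted p = 0.00804). *Bcl10* rose (log2 fold change 0.52, adjusted p = 0.00507) and its partner *Malt1* fell (log2 fold change -0.39, adjusted p = 0.0277), while *Card9*, which joins both, did not pass (log2 fold change -0.11, adjusted p = 0.683).

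Of 23 genes for the uptake of apoptotic cells, the process TIM-4 serves, 22 were tested, 10 were higher and 2 were lower, or 13 and 3 without TranspCtrl replicate 1. *Itgb3*, a subunit of the vitronectin receptor, passed both thresholds beside *Stab2* (log2 fold change 1.09, adjusted p = 0.000344). *Mertk*, the kinase receptor that acts with TIM-4, rose (log2 fold change 0.71, adjusted p = 0.000735). The resident macrophage list, where *Timd4* and *Cd163* would belong, had 8 of 12 genes higher and none lower. The 3 past both thresholds, which were 5 without TranspCtrl replicate 1, were *Slc40a1*, the iron exporter ferroportin (130 ± 6.71 CPM against 380 ± 4.03 CPM, log2 fold change 1.55, adjusted p = 3.21e-05), *Nr1h3*, the oxysterol receptor LXRα (log2 fold change 1.39, adjusted p = 6.19e-05), and *Lyve1*, at under 2 CPM (log2 fold change 1.64, adjusted p = 0.0184). Like *Stab2*, which the uptake list also holds, *Lyve1* is a gene of endothelium as well, and the part of the endothelial markers in its difference was not tested.

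Genes of alternative activation, with which *Mrc1* and *Clec10a* are commonly read, had a median log2 fold change of -0.59, with 2 of the 14 tested higher and 6 lower, or 2 and 8 without TranspCtrl replicate 1. *Irf4*, a transcription factor induced by interleukin 4, went from 90.3 ± 2.40 CPM to 18.4 ± 1.09 CPM (log2 fold change -2.30, adjusted p = 9.98e-06). *Ccl24* was lower (log2 fold change -2.08, adjusted p = 0.0113) and *Chil3* was higher (log2 fold change 0.30, adjusted p = 0.0267).

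**Figure D5:**
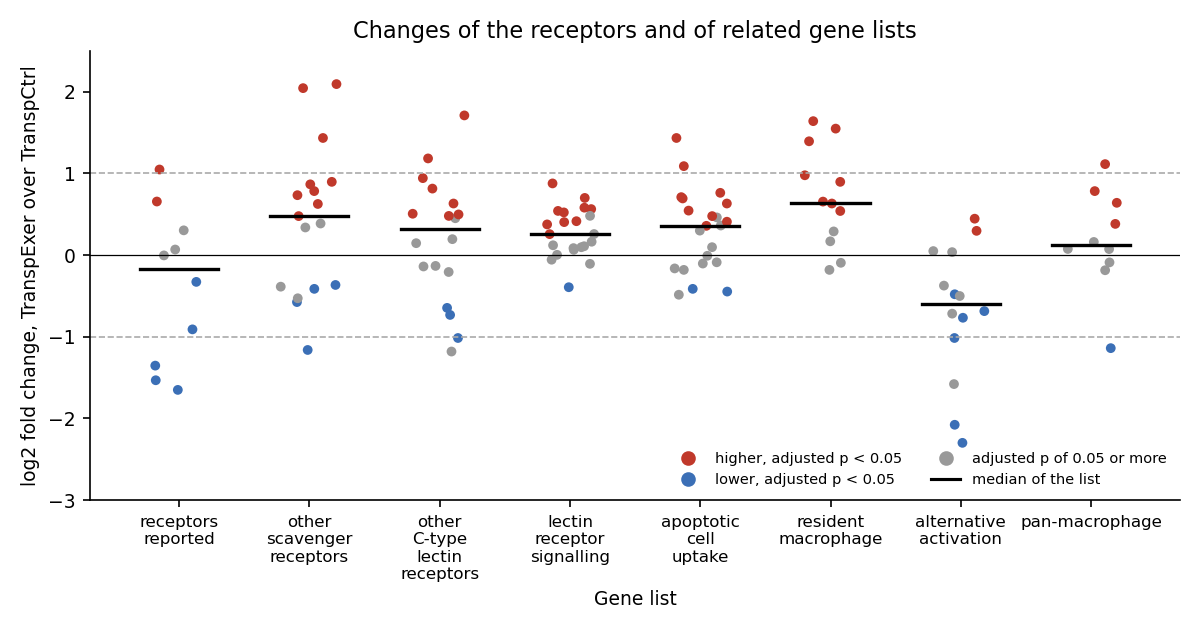
Log2 fold change, TranspExer over TranspCtrl, of the 10 receptors and of each tested gene in 7 related lists. Red and blue points passed an adjusted p-value of 0.05, grey points did not, black bars are medians and dashed lines mark a 2-fold change. The median is 0.64 for resident macrophage genes and -0.59 for alternative activation genes.

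Markers of other cells also differed between the groups, and their part in the receptors' differences was not tested. The summed level of 6 B cell genes was 1407 to 1770 CPM in TranspCtrl samples and 349 to 381 CPM in TranspExer samples, and 5 of the 6 were lower. Of 8 osteoclast genes, 6 were lower and 2 higher (528 to 633 CPM against 442 to 458 CPM). All 6 endothelial genes were higher (176 to 215 CPM against 548 to 600 CPM), as were 4 of 5 eosinophil, basophil and mast cell genes (30.5 to 43.9 CPM against 103 to 113 CPM). Of 8 monocyte genes, 3 were higher and 3 lower (1328 to 1352 CPM against 1096 to 1104 CPM), and of 11 neutrophil genes 3 were higher and 2 lower (3249 to 4332 CPM against 5544 to 5765 CPM). The 3 higher were *Mpo* (216 ± 57.2 CPM against 1197 ± 73.3 CPM), *Elane* (97.5 ± 22.9 CPM against 435 ± 7.68 CPM) and *Ngp*, and the 2 lower were *Ly6g* and *Cxcr2*. Without TranspCtrl replicate 1, 6 of the neutrophil genes were higher and 2 lower. The dendritic cell list had 2 of 7 tested genes higher and 1 lower, with a median log2 fold change of -0.01, and its sum (82.0 to 95.3 CPM against 130 to 138 CPM) was mostly *Itgax*, which macrophages also express and which went from 71.1 ± 6.80 CPM to 119.7 ± 4.10 CPM (adjusted p = 0.000745). The T and NK cell list had 2 of 7 higher and 1 lower (56.7 to 59.0 CPM against 76.0 to 82.1 CPM), or 2 lower without TranspCtrl replicate 1. That sum was mostly *Cd4* (41.0 ± 1.84 CPM against 52.4 ± 2.45 CPM). The estimates of *Cd4*, *Nkg7* and *Klrb1c* were above 0, and those of *Cd3e*, *Cd3d*, *Cd3g* and *Cd8a* were below 0. Of 10 stromal genes, 2 were higher and 6 lower (11540 to 19410 CPM against 12560 to 13810 CPM). The lowest of these sums was that of TranspCtrl replicate 1, and without it the TranspCtrl sums, 18690 to 19410 CPM, were above the TranspExer sums and 8 of the 10 genes were lower. None of 6 erythroid genes was tested, with at most 10 counts in any sample, and 3 of the 6 had 3 counts or fewer in all samples. The 10 receptors together held 1427 to 1655 CPM in TranspCtrl samples and 1427 to 1467 CPM in TranspExer samples.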

How the data were processed

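RNA-Seq of BM MSCs was read for 3 TranspCtrl and 3 TranspExer samples, grouped by their labels. No source says that these are separate animals, so p-values measure the spread between samples only. The authors deposited expected counts (estimated read counts per gene, not normalized). The submitters' processing notes name mm10. The aligner, counting tool and annotation are not given in the sources used here. Counts were rounded, filtered (filterByExpr), scaled by TMM and tested for condition with edgeR 4.0.16 in R 4.3.3 (quasi-likelihood test), and p-values were adjusted over 15190 genes by the Benjamini-Hochberg method. The thresholds (adjusted p-value 0.05, fold change 2) follow the study's methods, which name no test. CPM are TMM-scaled, given as mean ± SD, and ratios used log2 of CPM plus 0.5. Tests were checked on simulated data. GENCODE M21, which held 52125 of the identifiers, gave coordinates and exon lengths, and no exon of a member overlapped another gene.

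Members and lists were chosen with earlier results of these data known. Named genes were all members and, from each list, up to 3 genes with the smallest adjusted p-value among those past both thresholds. Some genes that this rule names are not reported here. Marker lists of other cells were given by summed level. *Csf1r*, *Pdgfra*, *Adgre1*, *Ssc5d*, *Fcer1g*, *Syk*, *Card9*, *Bcl10*, *Malt1*, *Mertk*, *Chil3*, *Itgax* and the neighbours of the lectin regions were named after their values were seen. So were *Cd4*, *Cd3e*, *Cd3g*, *Cd8a*, *Klrb1c*, *Ngp*, *Ly6g* and *Cxcr2*. Alternatives were DESeq2 1.42.0, library size or upper-quartile scaling, filters of none or at least 1 CPM in 3 samples, a replicate block, a fold change of 2 tested within the model, other macrophage references, the longest transcript, and each sample left out in turn. The length in the deposited table, *Clec10a* summed with *Mgl2* and list counts without TranspCtrl replicate 1 were added after the data were seen.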

Additional observations from a re-analysis of the deposited data

How the results depend on the processing

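The calls of *Clec4n*, *Clec4e*, *Marco*, *Clec10a* and *Clec7a* by adjusted p-value held under each of the 12 alternatives run for every member (13 for *Clec10a*), with highest adjusted p-values of 0.00529, 0.0163, 0.0331, 0.0211 and 0.00177. The fold of *Clec7a* was close to the threshold: with upper-quartile normalization or with library size only, the number of members higher past both thresholds was 0. These scalings shifted the median log2 fold change of all genes from -0.02 to -0.10. When the fold change of 2 was tested within the model, 1 member was lower (*Clec4n*, adjusted p = 0.0357) and 0 were higher, with *Clec4e* at an adjusted p-value of 0.0828 and *Marco* at 0.54. Members lower past both thresholds numbered 4 with library size only and without TranspCtrl replicate 2. When each sample was left out in turn, between 1 and 4 members were higher by adjusted p-value. *Timd4* lost its call without TranspCtrl replicate 3 or any TranspExer replicate, and *Cd163* and *Clec4d* gained one without TranspCtrl replicate 1. The log2 fold change of *Msr1* changed sign with DESeq2 (0.0019) and with the replicate block (0.0038), and ranged from -0.0686 to 0.1179 when samples were left out. That of *Clec4d* was -0.0213 with upper-quartile normalization and -0.0297 with library size only, and ranged from -0.0727 to 0.3256 when samples were left out. The causes were not tested.

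Samples with equal replicate numbers did not deviate together (correlations 0.062, -0.0291 and 0.0663), so the numbers were not taken as pairs. The replicate block left the counts at 3 lower and 1 higher past both thresholds and at 5 lower and 2 higher by adjusted p-value. Ratios to the macrophage genes moved by more than 1 SD for all 10 members with summed CPM as reference and for none with *Csf1r*, *Adgre1* and *Fcgr1* alone. Without TranspCtrl replicate 1 the group difference of the log2 ratio of *Clec4d* turned from -0.0936 to 0.0698.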
